A study of Saccharomyces cerevisiae with 4 samples.

Results

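A set of 10 genes of phosphate uptake and of the yeast PHO pathway had its ribosome footprints followed across 4 libraries of Saccharomyces cerevisiae. The 10 are the transporter genes PHO84, PHO89 and PHO90, the phosphatase genes PHO5, PHO3 and PHO8, the regulators SPL2 and PHO81, and the polyphosphate genes VTC3 and VTC4. They were chosen by ORF identifier with the total reads of the 4 libraries already known, so their levels and ratios stand as a description and carry no test. Of the 10 genes, 8 are among the 5441 ORFs of the tables, and PHO5 (YBR093C) and PHO3 (YBR092C) were not analysed here. A minimum of 200 summed counts over the 4 libraries was passed by 7 of the members and by 4997 of all ORFs, and SPL2, with 94 counts, lay under it.

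All 4 libraries came from whole cell lysate of strain Y7092, a haploid laboratory strain, grown in synthetic defined medium to early log phase. The wild-type strain and a strain with VPS35 replaced by natMX (vps35::natMX) each carried either pAG416GAL-ccdB, the control, or pAG416GAL-TIF4631, and the genes on the plasmids were induced for 2 h. VPS35 encodes a subunit of retromer, which returns membrane proteins from endosomes, and TIF4631 encodes the initiation factor eIF4G1, here under a galactose-inducible promoter. Ribosome profiling sequences the mRNA pieces that ribosomes shield from nuclease, so each count reflects the amount of an mRNA and its translation together. There was 1 library for each of the 4 groups, with no replicate. The phosphate content of the medium is not given in the sources used here.

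Summed counts lay between 11240681 and 18067205 per library. VPS35 had 2187 and 1974 counts in the wild-type libraries and 9 and 10 in the deletion libraries. TIF4631 stood at 453.3 CPM (counts scaled to a common library total of 1000000) in the wild-type control, 391.2 CPM in the wild-type library labelled TIF4631, 440.2 CPM in the deletion control and 6347 CPM in the deletion library with TIF4631. That wild-type library therefore went against its label, and every ratio that draws on it describes that library as labelled.

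Yeast senses phosphate through the PHO pathway. When phosphate is plentiful, the Pho80-Pho85 kinase phosphorylates the transcription factor Pho4 and keeps it out of the nucleus. When phosphate is scarce, Pho81 inhibits that kinase, Pho4 enters the nucleus with its partner Pho2, and genes for high-affinity uptake and secreted phosphatases are transcribed. Low-affinity carriers serve phosphate-rich cells, and the vacuole stores phosphate as polyphosphate chains, made by the VTC complex.

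Pho4 is known to bind the letters CACGTG, so the DNA upstream of the members was searched for them. Windows of 600 bases before the start codon were read from the R64 reference, the same assembly as sacCer3, for 5999 nuclear protein-coding genes. CACGTG, which reads the same on both strands, was present in 8 of the 10 members' windows, all but those of PHO90 and PHO3, and in 7.23% of all windows. At least 2 copies were present for PHO84, SPL2, VTC3 and VTC4, 4 of the 10 members, and in 0.867% of all windows. The members were listed as genes of the pathway in which Pho4 acts, so their higher shares are no independent result. SPL2 held 4 copies, which begin 361, 147, 90 and 31 bases before its start codon, and of these only the farthest is printed. The related letters CACGTT, searched on both strands and unable to match at the same bases, were in 18.8% of all windows and in those of 6 members. The stretches below set 3 genes whose footprints varied most between libraries, PHO84, PHO89 and SPL2, beside VTC3 and PHO81, which varied less. Each is written on the coding strand of its gene, the minus strand in all 5 cases, with CACGTG in capitals.
PHO84, chrXIII:26189-26256: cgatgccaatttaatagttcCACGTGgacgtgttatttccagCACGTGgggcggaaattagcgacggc
PHO89, chrII:798820-798865: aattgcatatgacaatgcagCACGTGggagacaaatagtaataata
SPL2, chrVIII:375436-375481: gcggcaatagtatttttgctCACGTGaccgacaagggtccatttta
VTC3, chrXVI:517304-517383: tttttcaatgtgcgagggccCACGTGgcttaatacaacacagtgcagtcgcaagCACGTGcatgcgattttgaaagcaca
PHO81, chrVII:958529-958574: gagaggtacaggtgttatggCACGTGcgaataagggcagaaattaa

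A match of letters is a description and not a measured site. The PHO84 copies begin 436 and 414 bases before its start codon, those of VTC3 345 and 311, that of PHO89 323, and that of PHO81 344. The PHO84 stretch overlaps the annotated features YNCM0001W and YML122C, whereas the other stretches printed overlap none. The letters occur before PHO84, PHO89 and SPL2, which spanned 3.86-fold to 3.96-fold between libraries, and before VTC3 and PHO81, at 1.20-fold and 1.45-fold. PHO90, with neither CACGTG nor CACGTT in its window, spanned 2.12-fold. The stretches were picked with these levels known, and whether the letters go with the spread was not tested.

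PHO84 (YML123C, chromosome XIII, 24037 to 25800, sacCer3) encodes the proton-coupled high-affinity phosphate transporter of the plasma membrane. It had 1105 counts in the wild-type control, 404 in the wild-type library labelled TIF4631, 970 in the deletion control and 618 in the deletion library with TIF4631. These are 62.5, 22.4, 86.3 and 37.8 CPM, with 95% exact Poisson intervals of 58.9 to 66.3, 20.2 to 24.7, 80.9 to 91.9 and 34.9 to 40.9 CPM. Both libraries with the TIF4631 label lay under both control libraries, and none of the 4 intervals overlapped another. Such intervals cover the counting error of reads only, and they leave out the spread between cultures. Reads copied by PCR and lacking molecular identifiers are not separate molecules, so the intervals may be too narrow even for counting error. Fewer cells making the transporter and less of its mRNA or translation per cell cannot be told apart in such lysates. An antisense RNA, YNCM0001W, is annotated across the whole PHO84 ORF, and whether counting used strand is not given in the sources used here.

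PHO89 (YBR296C, chromosome II, 796798 to 798522) encodes the sodium-coupled high-affinity transporter. Its counts in the same order were 294, 180, 443 and 227, or 16.6, 9.96, 39.4 and 13.9 CPM. The deletion control stood highest, at 3.96 times the level of the lowest library, the wild-type library labelled TIF4631. The interval of the deletion library with TIF4631, 12.1 to 15.8 CPM, overlapped that of the wild-type control, 14.8 to 18.7 CPM.

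SPL2 (YHR136C, chromosome VIII, 374654 to 375100) encodes a small regulator known to lower low-affinity phosphate uptake when phosphate is scarce. It had 35, 13, 32 and 14 counts in the same order, so each value rests on few reads. These are 1.98, 0.720, 2.85 and 0.857 CPM, with intervals from 0.383 to 1.23 CPM in the lowest library and from 1.95 to 4.02 CPM in the highest. Both libraries with the TIF4631 label again lay under both controls, but the interval of the deletion library with TIF4631, 0.468 to 1.44 CPM, overlapped that of the wild-type control, 1.38 to 2.75 CPM.

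PHO90 (YJL198W, chromosome X, 60844 to 63489) encodes a low-affinity transporter of the plasma membrane. Its counts were 1491, 1105, 1069 and 2123, or 84.4, 61.2, 95.1 and 129.9 CPM. The 2 libraries with the TIF4631 label held its lowest and its highest level, in wild type and deletion respectively, so its order differed from that of PHO84. No pair of its 4 intervals overlapped.

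PHO8 (YDR481C, chromosome IV, 1418550 to 1420250), the vacuolar alkaline phosphatase gene, varied by 1.18-fold between libraries, from 108.1 to 127.8 CPM. PHO81 (YGR233C, chromosome VII, 954674 to 958210), the inhibitor of Pho80-Pho85, had 84.0, 95.9, 78.5 and 66.3 CPM. It was highest in the wild-type library labelled TIF4631, where PHO84, PHO89 and SPL2 were at their lowest. VTC3 (YPL019C, chromosome XVI, 514511 to 517018), a VTC subunit, ranged from 79.9 to 95.5 CPM. VTC4 (YJL012C, chromosome X, 411234 to 413399), the subunit that makes polyphosphate, ranged from 225.1 to 245.5 CPM, a 1.09-fold spread.

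**Figure D1:**
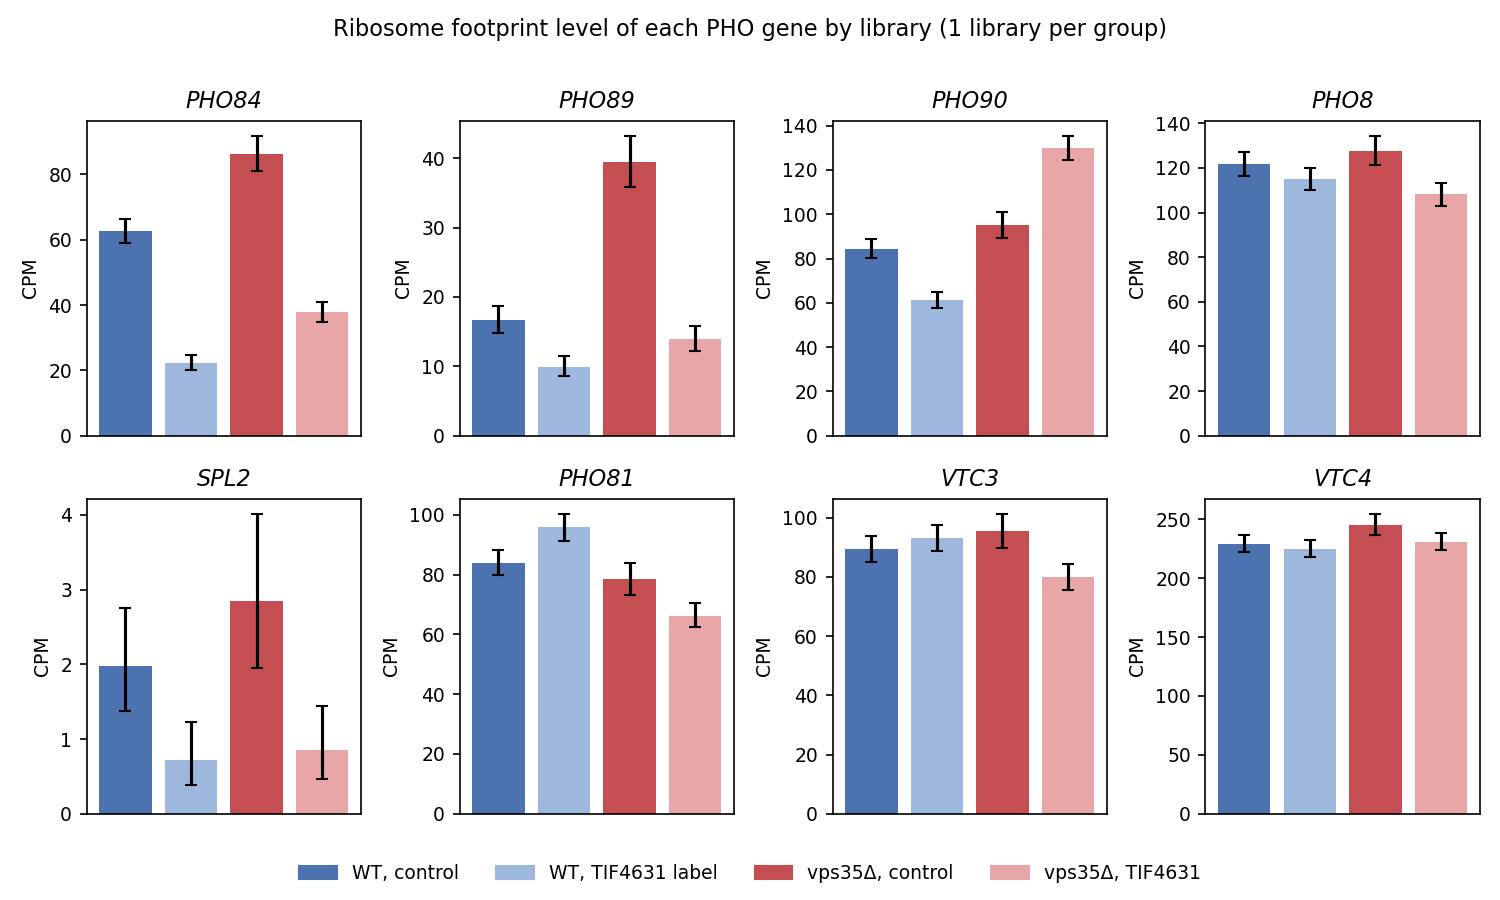
Footprint level in CPM (vertical axes, from 0, a separate scale for each gene) of the 8 PHO genes measured, in the 4 libraries. Bars are single libraries and error bars are 95% exact Poisson intervals; PHO84, PHO89 and SPL2 spanned 3.86-fold to 3.96-fold and VTC4 1.09-fold.

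Levels between genes were compared per length, with the authors' deposited RPKM. In the wild-type control the order was VTC4 at 106.5, PHO8 at 72.2, VTC3 at 35.9, PHO84 at 35.8, PHO90 at 32.1, PHO81 at 23.8, PHO89 at 9.73 and SPL2 at 4.59 RPKM. VTC3, PHO84 and PHO90 were neighbours whose counting intervals overlapped in turn, and the other neighbours were separated beyond counting error. VTC4 and PHO8 were first and second in all 4 libraries, and SPL2 was last in all 4. PHO84 ranked 4, 6, 3 and 5 of the 8 in library order, while PHO90 ranked 5 in the first 3 libraries and 3 in the deletion library with TIF4631.

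Against the RPKM of the 4997 ORFs past the minimum, PHO84 lay at percentile 44.2 in the wild-type control, 13.0 in the wild-type library labelled TIF4631, 54.6 in the deletion control and 26.0 in the deletion library with TIF4631. PHO89 lay at percentile 7.78, 2.88, 28.6 and 5.54. VTC4 stayed between 74.3 and 75.3.

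Ratios between libraries were taken on counts scaled by the TMM method. An ORF was called higher or lower from a 2-fold difference upwards, 1 or more on the log2 scale, with a 95% counting interval that excluded 0. These calls compare single libraries and have no replicate check, and because the members were chosen with the counts known, nothing is read from their number against the background. An interval that excludes 0 was common among the 4997 ORFs past the minimum. In the first of the comparisons that follow, 858 were above 0 beyond counting error and 864 were below 0. The second had 1199 and 1177, the third 1505 and 1565, and the fourth 1689 and 1762.

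The first comparison sets the deletion against wild type, both with the control plasmid. With 1 library on each side, loss of VPS35 cannot be told apart from a difference between cultures or libraries. PHO89 was 2.33-fold higher in the deletion library, at a log2 ratio of 1.22 (interval 1.01 to 1.44), and ranked 8th from the top of the 4997 ORFs. PHO84 followed in the same direction, at 0.44 (0.32 to 0.57). SPL2 stood at 0.49, with an interval of -0.24 to 1.24 that includes 0. Of the 7 members past the minimum, 1 was called higher and 0 lower, where 0.26% of all ORFs were higher and 0.54% lower. PHO90 at 0.15 and VTC4 at 0.08 lay just above 0 beyond counting error, and the intervals of PHO8, PHO81 and VTC3 spanned 0.

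The second comparison sets the wild-type library labelled TIF4631 against the wild-type control. PHO84 was 2.72-fold lower, at -1.44 (-1.61 to -1.28), the lowest log2 ratio of all 4997 ORFs. PHO89 at -0.70 (-0.98 to -0.43) ranked 16th from the bottom, and PHO90 at -0.43 (-0.54 to -0.31) ranked 120th. SPL2, outside the calls for its low count, stood at -1.39 (-2.46 to -0.47). Of the members 0 were called higher and 1 lower, against 0.46% and 0.1% of all ORFs. PHO81 was the only member above 0 beyond counting error, at 0.23 (0.13 to 0.33). In VTC4 the log2 ratio was 0.01, and it changed sign when libraries were scaled by total counts or by total counts without the 50 most abundant ORFs.

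The third comparison sets TIF4631 against the control plasmid in the deletion strain, the pair in which TIF4631 footprints were 14.3-fold higher. PHO89 was 2.86-fold lower, at -1.51 (-1.75 to -1.28), and PHO84 2.30-fold lower, at -1.20 (-1.35 to -1.06), ranking 8th and 19th from the bottom. SPL2 was at -1.70 (-2.77 to -0.80). PHO90 lay on the other side of 0, at 0.44 (0.33 to 0.55). PHO8, PHO81 and VTC3 lay between -0.27 and -0.25, and VTC4 at -0.10, all below 0 beyond counting error. In that order these 4 genes ranked only 1062, 1051, 997 and 1834 from the bottom of the 4997 ORFs. Of the members 0 were called higher and 2 lower, against 1.06% and 0.56% of all ORFs.

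The fourth comparison sets the deletion against wild type under the TIF4631 label, so only the numerator had raised TIF4631. PHO90 was 2.02-fold higher, at 1.01 (0.91 to 1.12), just inside the rule of size. PHO84 at 0.68 (0.50 to 0.87) and PHO89 at 0.41 (0.12 to 0.70) were above 0 beyond counting error, and PHO81 at -0.60 (-0.72 to -0.49) was below. SPL2, at 0.17, had an interval of -1.02 to 1.39. Of the members 1 was called higher and 0 lower, against 1.58% and 2.4% of all ORFs.

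**Figure D2:**
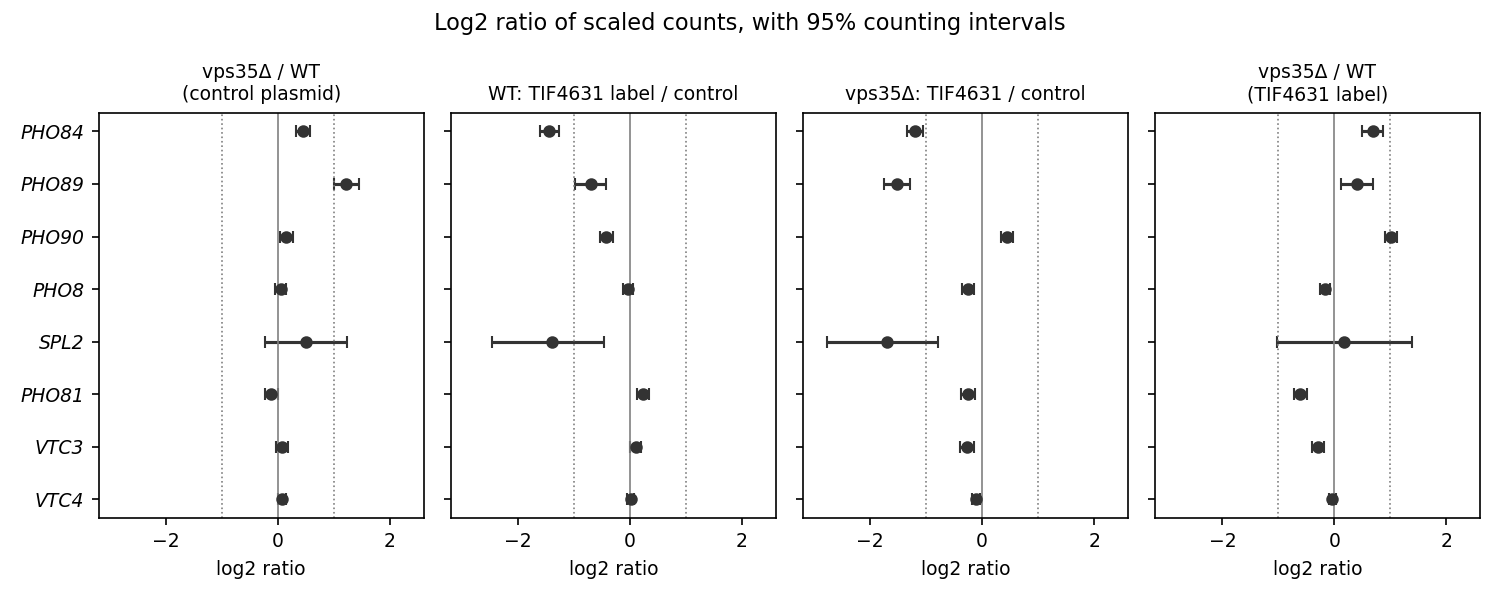
Log2 ratio of TMM-scaled counts (horizontal axes) for the 8 PHO genes measured in 4 comparisons of single libraries. Points are ratios, bars 95% counting intervals and dotted lines a 2-fold difference; PHO84 stands at -1.44 and -1.20 in the 2 plasmid comparisons.

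The 2 plasmid comparisons share no library. PHO84, PHO89 and SPL2 lay below 0 beyond counting error in both, whereas PHO90 lay below 0 in wild type and above 0 in the deletion strain. The difference between the plasmid ratios, deletion minus wild type, was 0.24 (0.02 to 0.46) for PHO84, -0.82 (-1.17 to -0.46) for PHO89 and -0.31 (-1.59 to 0.96) for SPL2. It was 0.86 (0.71 to 1.02) for PHO90 and -0.48 (-0.65 to -0.32) for PHO81. These intervals hold counting error only, and the wild-type side rests on a library in which TIF4631 was not raised, so the difference was not tested and does not measure an effect of TIF4631 that depends on VPS35.

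**Figure D3:**
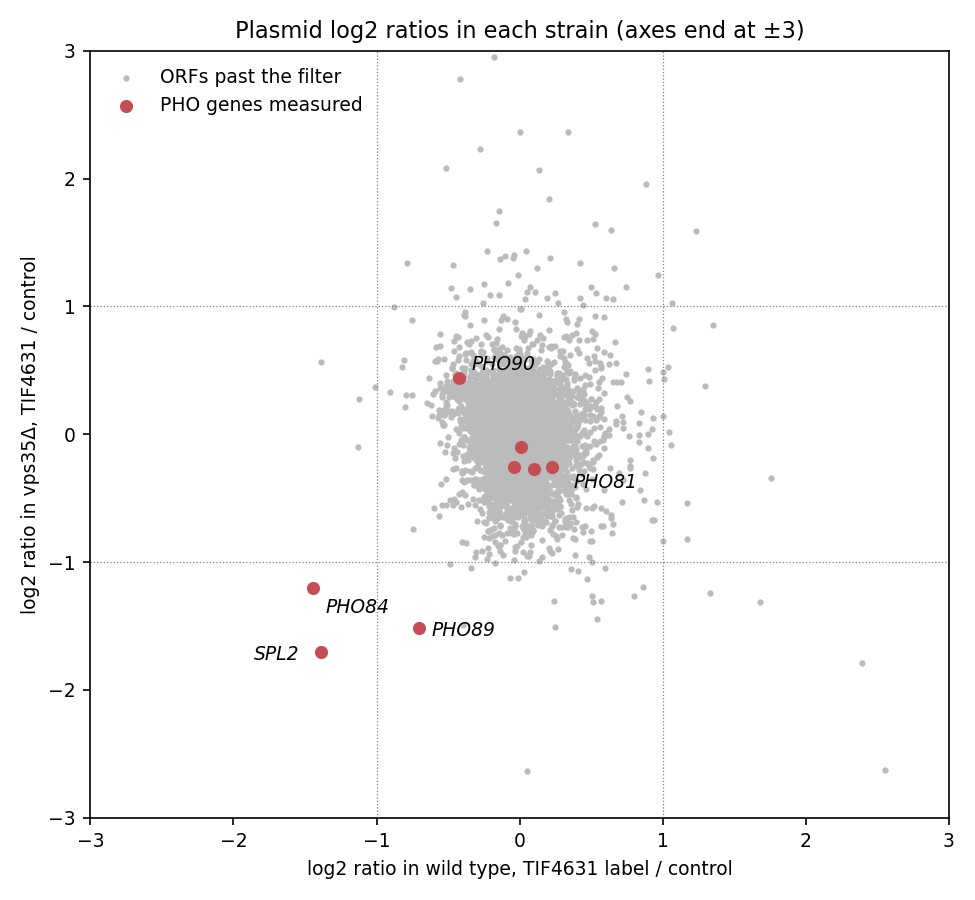
Log2 ratio of the TIF4631 label over control in wild type (horizontal) and in the deletion strain (vertical). Grey points are ORFs past the minimum count, of which 7 lie outside the axes, and red points the 8 PHO genes measured; PHO84, PHO89 and SPL2 sit at the lower left.

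The balance between high-affinity and other phosphate transporters was described by a quantity that does not depend on scaling, chosen after the values were seen. It is the share of PHO84 and PHO89 among the counts of those genes plus PHO87, PHO90 and PHO91. PHO87 encodes another low-affinity carrier of the plasma membrane and PHO91 a phosphate transporter of the vacuole. PHO84 and PHO89 held 1399 of 7243 such counts in the wild-type control, 19.3% (95% exact binomial interval 18.4% to 20.2%). They held 11.0% (10.2% to 11.9%) in the wild-type library labelled TIF4631, 26.9% (25.7% to 28.1%) in the deletion control and 11.3% (10.6% to 12.0%) in the deletion library with TIF4631. The shares in the 2 libraries with the TIF4631 label were alike within counting error and below both controls. The levels behind those shares were not alike. From the wild-type to the deletion library with that label, PHO84 went from 22.4 to 37.8 CPM and PHO90 from 61.2 to 129.9 CPM.

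PHO87 and PHO91 varied less than PHO84. PHO87 stayed between 85.6 and 99.0 CPM, and PHO91 ranged from 114.7 CPM in the wild-type library labelled TIF4631 to 181.5 CPM in the deletion library with TIF4631, the same ends as PHO90. Their log2 ratios in the third comparison were -0.04 (-0.15 to 0.08) for PHO87 and 0.26 (0.17 to 0.34) for PHO91. Per length, PHO84 stood at 1.11 times PHO90 in the wild-type control, 0.550 times in the wild-type library labelled TIF4631, 1.36 times in the deletion control and 0.438 times in the deletion library with TIF4631.

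**Figure D4:**
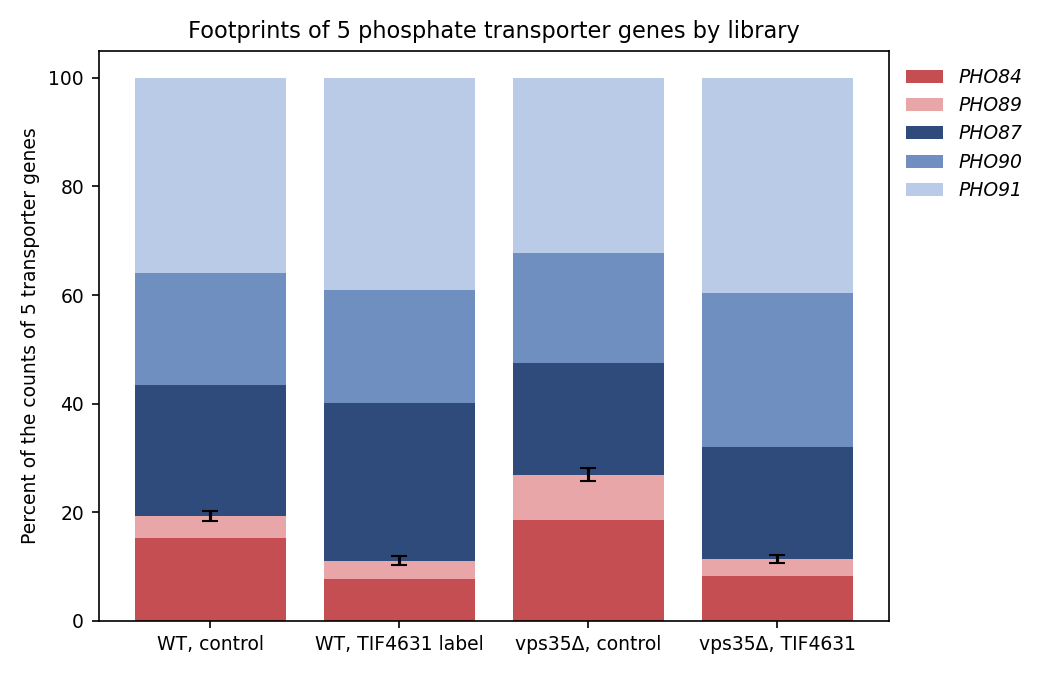
Percent of the summed counts of 5 phosphate transporter genes held by each gene (vertical axis) in the 4 libraries. Error bars are 95% exact binomial intervals of PHO84 and PHO89 together, which held 11.0% and 11.3% with the TIF4631 label and 19.3% and 26.9% in the controls.

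The ORFs with the pattern most like each high-affinity transporter gene were found by the root mean square difference of log2 profiles, each centred on its own mean over the 4 libraries. PHO89 was nearest to PHO84 of all ORFs past the minimum, at 0.312, and PHO84 was nearest to PHO89. The median distance of all ORFs was 0.732 from PHO84 and 0.726 from PHO89. VTC4, with its 1.09-fold spread, lay 0.700 from PHO84, so the median is near the distance of a gene that hardly varied. After PHO89, the nearest to PHO84 were INA1 at 0.427, NSR1 at 0.440, IZH4 at 0.449 and MOG1 at 0.455. After PHO84, the nearest to PHO89 were ICL1 at 0.346, AAC1 at 0.382, YJL118W at 0.421 and ADH6 at 0.422. SPL2, with its low count, lay 0.214 from PHO84, nearer than any ORF past the minimum, and 0.348 from PHO89. The remaining members lay between 0.665 and 0.822 from either gene. The members were chosen with these counts known, so their likeness is no independent support. With only 4 libraries behind each profile, likeness is a description.

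Among the rest of the pathway, 32 other genes were listed, of which 30 were in the tables and 28 passed the minimum. PHO11 and PHO12, acid phosphatase genes, were not analysed here, and GIT1 and PHM6 had too few counts. None of the 28 was called in the first comparison. In the second, PIC2, which encodes a mitochondrial carrier of phosphate and copper, was called higher at 1.01 (0.92 to 1.11) and 0 genes were lower. In the third, PHM7 at 1.38 (1.24 to 1.53) and PHM8, a phosphatase gene, at 1.06 (0.70 to 1.45) were higher, and PPN2, a polyphosphatase gene, at -1.12 (-1.34 to -0.92) was lower. In the fourth, PHM7 was higher at 2.09 and PPN2 lower at -1.34.

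The list's median log2 ratios in the 4 comparisons were 0.052, 0.018, -0.053 and 0.0090, beside -0.00071, 0.0016, 0.0060 and -0.0018 for all ORFs. Of the signalling genes, PHO4, PHO2, PHO80 and PHO85 varied by 1.14-fold, 1.26-fold, 1.29-fold and 1.15-fold between libraries, and PHO81 by 1.45-fold. PHO4 lay between 35.6 and 40.7 CPM, PHO2 between 50.7 and 63.9, PHO80 between 8.25 and 10.7 and PHO85 between 91.2 and 104.6 CPM. The VTC subunit genes VTC1 and VTC2 lay between 153.9 and 173.7 and between 187.6 and 247 CPM, and VTC5, which encodes a further protein of the complex, between 50.4 and 66.4 CPM. In the third comparison VTC5 stood at 0.38 (0.24 to 0.53), VTC2 at -0.41 (-0.48 to -0.34) and VTC1 at -0.10 (-0.19 to -0.02). PHO86, which helps Pho84 leave the endoplasmic reticulum, was lowest in the deletion library with TIF4631, at 78.6 CPM, and highest in the deletion control, at 115.5 CPM.

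**Figure D5:**
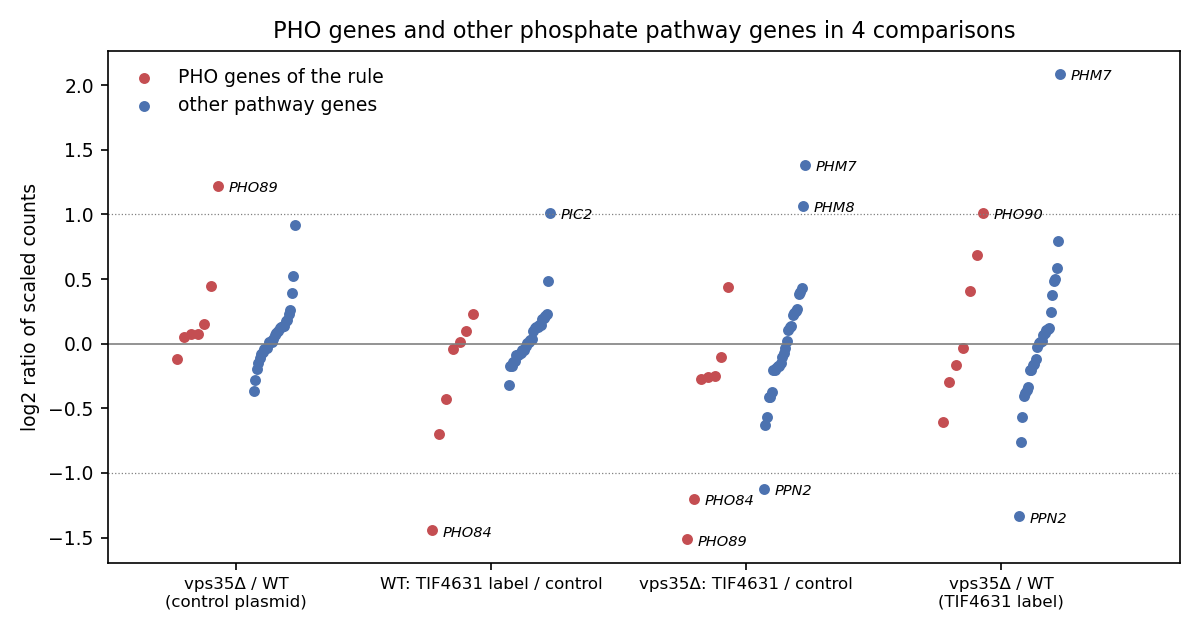
Log2 ratio of TMM-scaled counts (vertical axis) in 4 comparisons for the 7 PHO genes past the minimum count (red) and 28 other pathway genes (blue), each point a gene. Dotted lines mark a 2-fold difference, and the genes called are named; in the second comparison PHO84 was lowest, at -1.44.

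The sequence of the ORFs was checked for shared stretches, since footprints were cut to about 30 bases. For PHO84, PHO89, PHO90, PHO8, SPL2, VTC3 and VTC4 no window of 30 bases recurred elsewhere in the genome on either strand, and for PHO81 0.0570% of windows did. None of the windows of PHO90 recurred in its relative PHO87, nor any of VTC3 in VTC2. For PHO5 and PHO3, the members not analysed here, 20.3% and 15.9% of windows recurred elsewhere, mostly in each other. A share of at least 10% was found for 38 of 5427 protein-coding ORFs in the tables, 0.700%, and for 394 of the 594 others of the reference, 66.3%.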

How the data were processed

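The authors deposited 1 table per library, with counts of total reads per ORF and RPKM, scaled by ORF length and dataset reads, both per the file headers. The tools Bowtie2, cutadapt 1.3 and CASAVA and the build sacCer3 are named, with no role, per the submitters' processing notes. For the counting tool, strand setting and reads with several matches, the sources used here give nothing. The length behind the deposited RPKM was 15 bases under the annotated length for all 8 members measured. Gene names came from the R64 reference, which matched 5438 of 5441 ORFs.

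Counts were scaled by TMM (edgeR 4.0.16, R 4.3.3), with factors of 0.971 to 1.02. Log2 ratios took 0.5 added counts and 95% Clopper-Pearson intervals, and the difference of 2 ratios took a normal approximation. With 1 library per group no test was made across genes, and p-values were not computed. The procedure was tested on simulated counts with Poisson error only. That run held no spread between cultures and no copied reads, so it cannot show how the calls fare under either. Every deposited table was used. CPM is per 1000000 deposited counts. A count of 0 allows 3 counts, or 0.166 to 0.267 CPM. Members and lists were chosen with earlier results of these data known. Named were all members, pathway genes past the rule of size, PHO87, PHO91, VTC1, VTC2, PHO11 and PHO12 as relatives or complex partners of members, the 5 ORFs nearest to PHO84 and PHO89, and VPS35 and TIF4631; VTC5, PHO86, GIT1, PHM6 and the signalling genes were named after their values were seen. Alternatives were 3 other scalings (DESeq2 1.42.0 for one), 2 other filters, 5 added counts and a 1.5-fold rule. Other software was scipy 1.17.1, matplotlib 3.10.9, pandas 2.3.3, numpy 2.4.6 and Python 3.11.15.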

Additional observations from a re-analysis of the deposited data

How the results depend on the processing

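With 1 library per group nothing could be left out, and no paired analysis was possible. Under the 3 other scalings and with 5 counts added, 159 of 160 member ratios and differences of ratios stayed within their counting intervals. The exception, VTC4 in the fourth comparison, was 0.04 with total counts. The calls of PHO84, PHO89 and PHO90 held under those 3 scalings. With no filter SPL2 joined, giving 2 members lower in the second comparison, where 20 of all 5441 ORFs were lower. In the third it gave 3 members lower, where 39 of the 5441 were. With a 1.5-fold rule 2 members were lower in the second comparison, and 2 were higher and 1 lower in the fourth. Over all 5441 ORFs, no filter gave 24 higher and 47 lower in the first comparison, 37 and 20 in the second, and 67 and 39 in the third. A filter of 1000 counts gave 8 and 13 in the first, 3 lower in the second and 33 higher in the third. Among the 4997 ORFs past the minimum, a 1.5-fold rule gave 56 and 67, 91 and 24, 180 and 247, and 319 and 395 in the 4 comparisons. The shares of all ORFs printed as background thus depend on filter and fold. Depth limits SPL2 most, with 13 to 35 counts per library.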
